A study of Mus musculus with 96 samples.

Results

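The insulin and feeding response genes described here were Insr, Irs1, Irs2, Pik3r1, Foxo1, Igfbp1, Ppargc1a, Sik1 and Trib1, which are 9 of the 25095 gene symbols measured, and for each the most abundant transcript on average stood for the gene. They were taken by symbol and not by a cutoff on measured values. The list was chosen with earlier results of these data known. All 9 passed the filter on low values, at least 3 libraries above 5 RPKTM, in every table. RPKTM is an RPKM with 10 times the read base, so it is a level per transcript length and can be compared between genes.

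The 96 RNA-Seq libraries came from hepatocytes and liver macrophages isolated from livers of adult male C57BL/6J mice that ate a diet rich in fat and sucrose (D12492i) for 4 weeks, collected at ZT4, ZT10, ZT16 or ZT22 (zeitgeber time, hours after lights on, ZT4 and ZT10 lying in the light phase and ZT16 and ZT22 in the dark phase, when mice eat). All mice carried floxed alleles and received an adeno-associated virus driven by the hepatocyte promoter TBG: Control mice got AAV-TBG-GFP, and the others got AAV-TBG-CRE, which is meant to delete Nr1d1 and Nr1d2 (encoding REV-ERBα and REV-ERBβ, repressors within the circadian clock) in RevDKO, these and Scap (encoding the escort protein of the SREBP lipid regulators) in RevScapTKO, and Scap alone in ScapKO. Cre was thus directed to hepatocytes, and the macrophages of all 4 genotypes were not its target. Each genotype, time point and cell type had 3 libraries. The methods of the study call them biological replicates but do not say that each was a separate mouse. P-values therefore measure the spread between these libraries. The ScapKO tables held no control group and were normalised apart, so ScapKO levels are given only within themselves.

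Insulin binds the insulin receptor, which passes the signal through insulin receptor substrates to PI 3-kinase and the kinase AKT. AKT keeps the transcription factor FOXO1 out of the nucleus after a meal. During fasting FOXO1 returns to the nucleus and, with glucagon and cAMP signals acting through CREB, drives hepatic genes such as Igfbp1, Irs2 and Ppargc1a, so that these genes are known in liver as markers of the fasted state.

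The promoter sequences of Igfbp1, Irs2 and Ppargc1a are shown because these genes carried called differences in mean level and are known targets of FOXO1 or CREB. RefSeq promoters (GRCm38.p6) were held for 6 of the 9 members, in 7 entries, and not for Insr, Sik1 or Trib1. Each is the 250 bases before the transcript start, written 5′ to 3′ on the strand of the gene, at chr11:7197537-7197786 (plus strand) for Igfbp1, chr8:11008930-11009179 (minus strand) for Irs2 and chr5:51567726-51567975 (minus strand) for Ppargc1a. Capitals mark matches, on either strand, to CAAAACA or GTAAACA (forkhead cores), TGACGTCA or its inner TGACG (the cAMP element), AGGTCA (the nuclear receptor core that REV-ERB also binds) or CACGTG (the E-box).
Igfbp1: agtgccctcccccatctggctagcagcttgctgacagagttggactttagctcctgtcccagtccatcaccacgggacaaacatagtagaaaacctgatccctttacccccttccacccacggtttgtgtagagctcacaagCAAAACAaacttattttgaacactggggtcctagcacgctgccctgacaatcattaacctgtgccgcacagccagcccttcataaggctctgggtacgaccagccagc
Irs2: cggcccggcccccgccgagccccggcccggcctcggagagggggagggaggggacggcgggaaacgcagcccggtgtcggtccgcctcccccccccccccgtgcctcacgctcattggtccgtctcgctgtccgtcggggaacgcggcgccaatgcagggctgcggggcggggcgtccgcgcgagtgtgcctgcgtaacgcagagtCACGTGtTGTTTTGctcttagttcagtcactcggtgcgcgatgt
Ppargc1a: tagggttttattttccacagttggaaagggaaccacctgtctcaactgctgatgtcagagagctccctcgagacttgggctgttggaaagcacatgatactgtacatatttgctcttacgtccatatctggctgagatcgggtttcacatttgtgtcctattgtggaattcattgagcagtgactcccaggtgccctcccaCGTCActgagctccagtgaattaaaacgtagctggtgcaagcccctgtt
CAAAACA stood 108 bases before the start in Igfbp1 and, on the other strand, 37 bases before it in Irs2, and it was in 5.56% of all 32851 promoters. Irs2 also held CACGTG, 44 bases before its start (6.02% of all promoters), and Ppargc1a held TGACG on the other strand, 49 bases before its start (17.8%). Irs1 held CAAAACA 2 times, TGACG and CACGTG, 1 of 2 Pik3r1 entries held TGACG, and Foxo1 held none of the 6 motifs. No entry of a member held GTAAACA (3.17% of all promoters), TGACGTCA (1.55%) or AGGTCA (14.0%). A match is a description of these letters and not a binding site.

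Several libraries stood apart or went against their labels. Nr1d1 was higher in the hepatocyte libraries labelled RevDKO (median 91.3 RPKTM, 39.9 to 359) than in Control (45.9, 3.57 to 358, 1.55 log2 units, limma adjusted p = 8.87e-05), and Nr1d2 was not lower (medians 320.1 and 218, adjusted p = 0.0626). In those labelled RevScapTKO, Nr1d1 (1.79 log2 units, limma adjusted p = 2.14e-06) and Nr1d2 (0.95, adjusted p = 3.18e-04) were both higher than in Control. Every direction below is therefore that of libraries labelled RevDKO or RevScapTKO. Whether the deleted exons lie in the counted transcripts was not tested. By relative mRNA, the study reports a marked fall of both genes in hepatocytes and derepression of Bmal1, a target of REV-ERB. Scap followed its labels in RevScapTKO hepatocytes, with 83 to 299 RPKTM against 321 to 733 in RevDKO, which did not overlap. In ScapKO hepatocytes Scap ran from 205 to 1006 RPKTM (median 345). With no control group in that table, its loss there could not be checked. Hepatocyte libraries held RNA of other cells in amounts that moved with genotype: the summed level of 12 macrophage markers was, by the median library, 958 RPKTM for Control against 1186 for RevDKO and 3167 for RevScapTKO, and all 12 were above 5 RPKTM in each. Macrophage libraries in turn held hepatocyte RNA, with 10 of 10 hepatocyte markers above 5 RPKTM and Alb at 15.95% to 32.1% of the summed level in 3 of 36 libraries (Control ZT16 replicate 1, Control ZT22 replicate 1 and RevScapTKO ZT22 replicate 3) and at most 2.11% in the rest. Quantile normalisation gives each rank a fixed value, so this share reflects the rank of Alb and does not measure the amount of hepatocyte RNA. The libraries titled ScapKO hepatocytes were labelled liver macrophages in another field; their hepatocyte markers were far above their macrophage markers, and the titles were followed. One of these, ZT16 replicate 3, held Xist at 130 RPKTM against at most 15.0 in the other ScapKO hepatocyte libraries. Its summed level of Y-linked genes, 1115 RPKTM, lay within the 896 to 1420.5 of those others. In bulk samples, fewer cells of a type and less RNA per cell cannot be told apart.

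In Control hepatocytes Insr was the most abundant member by level per length (1283 ± 214 RPKTM, mean ± SD, n = 12 libraries over the 4 times), followed by Pik3r1 (562 ± 110) and Irs1 (319 ± 41.8). Igfbp1 (160 ± 86.5), Foxo1 (150.3 ± 38.9), Trib1 (141 ± 29.7), Sik1 (115 ± 35.3) and Irs2 (109 ± 55.1) lay within their spread of each other, and Ppargc1a was lowest (50.3 ± 20.3). Control macrophages, measured in a separate table, had their highest member level in Pik3r1 (275 ± 55.2), with Insr (247 ± 86.5) within its spread, and the lowest in Ppargc1a (6.72 ± 4.40). The other 6 members lay between 22.3 (Sik1) and 44.5 (Irs1) RPKTM.

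**Figure D1:**
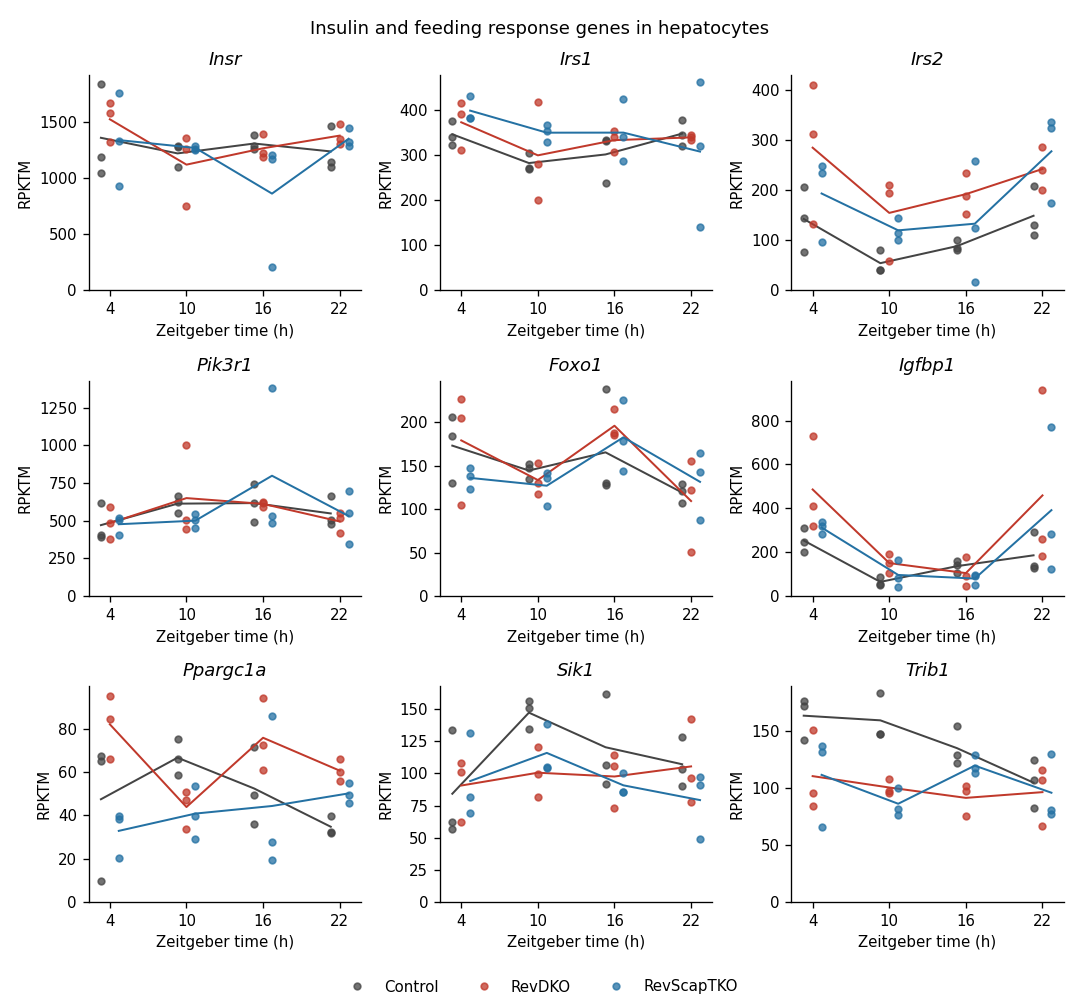
Level of the 9 members in hepatocytes, in RPKTM on linear axes that start at 0, against zeitgeber time in hours; each point is 1 library, lines join the means of 3 libraries, and colours mark Control, RevDKO and RevScapTKO. Irs2 means lay above Control in RevDKO at all 4 times, Trib1 means lay below Control, and Igfbp1 was lowest at ZT10 or ZT16 in each genotype; the RevScapTKO library at ZT16 with Insr at 209 and Pik3r1 at 1377 RPKTM is visible apart from its replicates.

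Whether loss of the hepatocyte clock repressors, without and with Scap, was accompanied by a different mean level over the day was tested with limma on log2(RPKTM + 1) across all genes (Benjamini-Hochberg adjusted p, threshold 0.05). Between RevDKO and Control hepatocytes 1 member rose, Irs2, 1 fell, Trib1, and 7 did not pass; 4.43% of 13326 genes passed in this comparison. Between RevScapTKO and RevDKO 1 of 9 passed, Ppargc1a, which fell, against 26.2% of all genes, and between RevScapTKO and Control 1 of 9 passed, Trib1, which fell, against 35.9%. The median difference over the 9 members was 0.04, -0.06 and -0.06 log2 units in these comparisons, beside -0.01, -0.03 and -0.04 over all genes tested. The comparisons share libraries, so their values are set side by side and are not independent of each other.

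**Figure D2:**
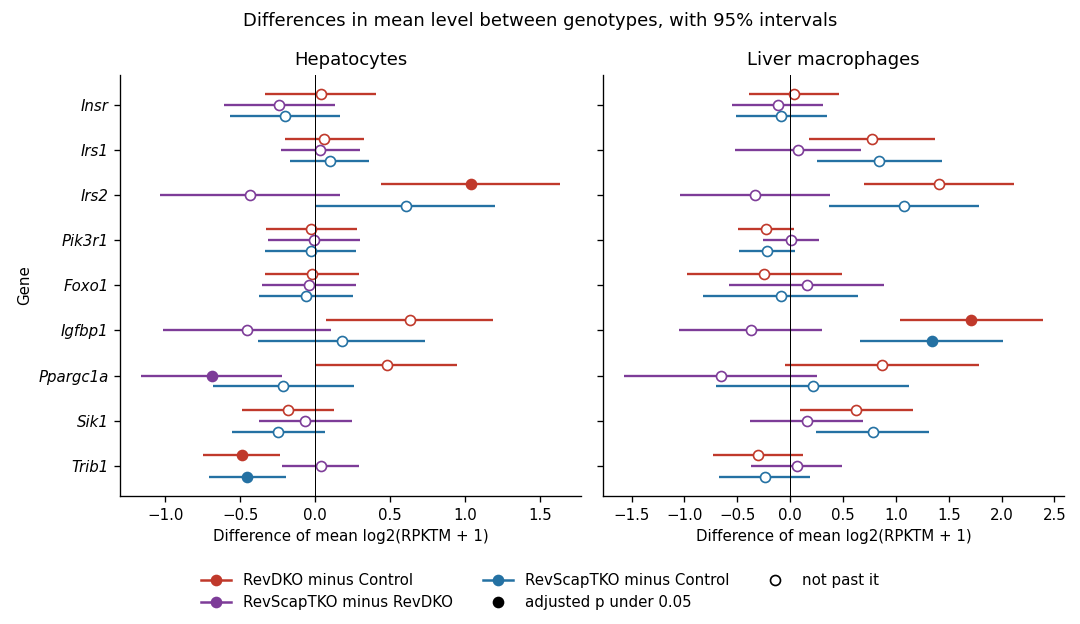
Difference in mean log2(RPKTM + 1) between genotypes for each member, in hepatocytes and in liver macrophages, with 95% intervals from limma; filled points passed an adjusted p of 0.05. In hepatocytes the filled points are Irs2 at 1.04 and Trib1 at -0.49 (RevDKO minus Control), Ppargc1a at -0.69 (RevScapTKO minus RevDKO) and Trib1 at -0.45 (RevScapTKO minus Control), and in macrophages Igfbp1 at 1.71 and 1.34 (RevDKO and RevScapTKO minus Control).

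Insr, the receptor itself (NM_001330056, mm9 chromosome 8, 3150922 to 3279617, minus strand), did not pass in any comparison of mean level. RevDKO minus Control was 0.04 log2 units (95% interval -0.33 to 0.41, limma adjusted p = 0.952) and RevScapTKO minus RevDKO was -0.24 (-0.61 to 0.13, adjusted p = 0.347). Insr measured 1328, 929.9 and 1763 RPKTM at ZT4, 1265, 1253 and 1292 at ZT10, 1175, 209 and 1205 at ZT16 and 1285, 1450.1 and 1321 at ZT22 in RevScapTKO. The value of 209 RPKTM at ZT16 lay far below its 2 replicates, and the same library, replicate 2, held Irs2 at 17.4, below all other hepatocyte libraries of these 3 genotypes, and Pik3r1 at 1377, above all of them.

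Irs1 (NM_010570, chromosome 1, 82229680 to 82288014, minus strand), a substrate through which the receptor signals, also did not pass, at 0.06 (-0.20 to 0.32, limma adjusted p = 0.870) for RevDKO minus Control and 0.10 (-0.16 to 0.36, adjusted p = 0.577) for RevScapTKO minus Control. Its 36 hepatocyte values ran from 141 to 461 RPKTM. Pik3r1 (NM_001077495, chromosome 13, 102450716 to 102538172, minus strand), the regulatory subunit of PI 3-kinase, showed the smallest difference of the 9 members between RevScapTKO and RevDKO, at -0.01 (-0.31 to 0.30, limma adjusted p = 0.983). Over Insr, Irs1 and Pik3r1 the intervals of the hepatocyte mean differences lay between -0.61 and 0.41 log2 units.

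Irs2 (NM_001081212, chromosome 8, 10984681 to 11008929, minus strand) is the substrate that liver raises in fasting, under FOXO1. It measured 77.6, 145 and 206 RPKTM at ZT4, 81.0, 40.8 and 41.7 at ZT10, 84.6, 101 and 80.5 at ZT16 and 129.9, 208 and 109.9 at ZT22 in Control hepatocytes. In RevDKO it measured 411, 132 and 313 RPKTM at ZT4, 210.2, 59.8 and 195 at ZT10, 189, 236 and 153 at ZT16 and 200.4, 241 and 287 at ZT22. The 3 RevDKO values lay above all 3 Control values at ZT16, and the groups overlapped at ZT4, ZT10 and ZT22. Averaged over the day the rise was 1.04 log2 units (SE 0.29, 95% interval 0.44 to 1.64, limma adjusted p = 0.0341), from a mean of 109 to 219 RPKTM. The estimate stayed between 0.94 and 1.18 under 33 alternatives, with an adjusted p from 0.00297 to 0.123. Leaving out a single library ended the call for 14 of 24 libraries, with an adjusted p from 0.0514 to 0.0725: Control ZT4 replicate 1, ZT10 replicates 2 and 3, ZT16 replicates 1 and 3 and ZT22 replicates 1 and 3, and RevDKO ZT4 replicates 1 and 3, ZT10 replicates 1 and 3, ZT16 replicates 1 and 2 and ZT22 replicate 3. A transcript on the opposite strand, 9530052E02Rik, overlaps Irs2, and whether counting used the strand is not given in the sources used here.

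In RevScapTKO hepatocytes Irs2 measured 249.7, 97.4 and 234 RPKTM at ZT4, 101, 114 and 146 at ZT10, 258, 17.4 and 124 at ZT16 and 174, 324 and 337 at ZT22. These values lay above all Control values at ZT10 and overlapped those of RevDKO at all 4 times, and the difference of -0.43 (-1.03 to 0.16, limma adjusted p = 0.284) did not pass. The difference from Control, 0.60 (0.01 to 1.203, adjusted p = 0.106), did not pass either, but without the RevScapTKO library at ZT16 replicate 2 it was 0.88 (adjusted p = 0.00388).

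Foxo1 (NM_019739, chromosome 3, 52072259 to 52154031, plus strand), the factor that insulin restrains, did not pass at the level of its own transcript. Control hepatocytes had a mean of 150.3 ± 38.9 RPKTM, RevDKO 154 ± 51.9 and RevScapTKO 144 ± 35.1 (SD, n = 12 libraries a genotype), and the intervals of the 3 differences lay between -0.37 and 0.29 log2 units (smallest limma adjusted p = 0.786).

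Igfbp1 (NM_008341, chromosome 11, 7097790 to 7102549, plus strand) encodes a secreted binding protein for insulin-like growth factors and is a classical gene that insulin represses. In Control hepatocytes it measured 312, 247 and 203 RPKTM at ZT4, 87.8, 50.6 and 57.0 at ZT10, 142, 161 and 107 at ZT16 and 136, 293 and 129 at ZT22. In RevDKO it measured 409, 319.9 and 729.6 RPKTM at ZT4, 153, 106 and 193 at ZT10, 91.6, 178 and 45.9 at ZT16 and 259, 181 and 937 at ZT22, and in RevScapTKO 336, 283 and 318 RPKTM at ZT4, 43.3, 81.2 and 166 at ZT10, 52.3, 91.4 and 97.0 at ZT16 and 122, 285 and 769 at ZT22. All 3 RevDKO values lay above all 3 Control values at ZT4 and at ZT10, the groups overlapped at ZT16 and ZT22, and the RevScapTKO values overlapped those of RevDKO at every time point and lay below all Control values at ZT16. The mean difference of RevDKO minus Control, 0.63 log2 units (SE 0.27, 0.07 to 1.191), did not pass after adjustment (limma adjusted p = 0.222). At ZT22 1 RevDKO library (937 RPKTM) and 1 RevScapTKO library (769 RPKTM), both replicate 3, stood more than 3-fold above the mean of the other 2 replicates.

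Ppargc1a (chromosome 5, 51845488 to 51945160, minus strand, the non-coding RefSeq transcript NR_027710 being the highest of 3 listed) encodes the coactivator PGC-1α, which works with FOXO1 on gluconeogenic genes. It measured 95.3, 84.6 and 66.2 RPKTM at ZT4, 33.8, 50.6 and 47.1 at ZT10, 72.3, 94.2 and 60.9 at ZT16 and 60.2, 55.9 and 65.9 at ZT22 in RevDKO hepatocytes. In RevScapTKO it measured 20.5, 39.8 and 38.2 RPKTM at ZT4, 29.1, 53.6 and 39.8 at ZT10, 27.8, 85.7 and 19.4 at ZT16 and 49.6, 54.9 and 45.9 at ZT22. The RevScapTKO values lay below all RevDKO values at ZT4 and ZT22, while at ZT10 and ZT16 the groups overlapped. The mean fell from 65.6 to 42.0 RPKTM, a difference of -0.69 log2 units (SE 0.23, -1.16 to -0.22, limma adjusted p = 0.0265). This call was lost without the RevScapTKO library at ZT16 replicate 3 (-0.58, adjusted p = 0.0652) and with the macrophage marker level as a covariate (-0.84, adjusted p = 0.214). Macrophage markers were higher in RevScapTKO than in RevDKO hepatocyte libraries (above), and their part in the difference beyond that covariate was not tested. Control values were 65.1, 9.61 and 67.5 RPKTM at ZT4, 75.3, 65.8 and 58.7 at ZT10, 36.2, 71.4 and 49.5 at ZT16 and 39.7, 32.4 and 32.0 at ZT22, with 1 library at ZT4 (9.61 RPKTM) more than 3-fold below its replicates, and neither comparison with Control passed (0.48, 0.01 to 0.95, limma adjusted p = 0.287 for RevDKO and -0.21, -0.68 to 0.26, adjusted p = 0.500 for RevScapTKO). Both deletion genotypes lay below all Control values at ZT10, above all of them at ZT22, and overlapped them at ZT4 and ZT16. The mean over the day averages over these opposite directions.

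Sik1 (NM_010831, chromosome 17, 31981193 to 31992749, minus strand), a salt-inducible kinase that cAMP induces and that restrains CREB coactivators, did not pass in hepatocytes. Control hepatocytes had a mean of 115 ± 35.3 RPKTM, RevDKO 98.5 ± 22.3 and RevScapTKO 94.98 ± 24.4 (SD, n = 12 libraries a genotype). The difference of RevDKO minus Control was -0.18 (-0.49 to 0.13, limma adjusted p = 0.614). At ZT10 all 3 RevDKO values, 81.6 to 120.2 RPKTM, lay below all 3 Control values, 135 to 156, and that difference of -0.56 did not pass either (adjusted p = 0.698).

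Trib1 (NM_144549, chromosome 15, 59480209 to 59488654, plus strand) encodes a pseudokinase that directs proteins such as C/EBPα to degradation and is a human lipid trait gene. It measured 142, 173 and 177 RPKTM at ZT4, 148, 184 and 147 at ZT10, 154, 123 and 129 at ZT16 and 125, 107 and 82.5 at ZT22 in Control hepatocytes. In RevDKO it measured 84.6, 96.2 and 151 RPKTM at ZT4, 96.2, 97.1 and 108 at ZT10, 102, 75.4 and 97.4 at ZT16 and 107, 66.4 and 116 at ZT22, below all Control values at ZT10 and ZT16 and overlapping them at ZT4 and ZT22. The mean fell from 141 to 99.8 RPKTM, a difference of -0.49 log2 units (SE 0.13, -0.75 to -0.23, limma adjusted p = 0.0160) that passed under 33 of 33 alternatives, with estimates from -0.55 to -0.43. In RevScapTKO Trib1 measured 137, 66.3 and 132 RPKTM at ZT4, 81.8, 101 and 76.6 at ZT10, 118, 129 and 113 at ZT16 and 77.5, 80.9 and 129.7 at ZT22, below all Control values at ZT4 and ZT10, with a difference from Control of -0.45 (SE 0.13, -0.71 to -0.20, adjusted p = 0.00570). That call was lost when the 3 hepatocyte libraries least like the rest were left out together (RevScapTKO ZT4 replicates 2 and 3 and ZT22 replicate 2), at -0.34 (adjusted p = 0.0601). RevScapTKO minus RevDKO was 0.04 (-0.22 to 0.29, adjusted p = 0.855).

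At single time points no member passed between RevDKO and Control hepatocytes, where 0.585%, 1.186%, 0.3% and 0.488% of all genes passed at ZT4, ZT10, ZT16 and ZT22, nor between RevScapTKO and RevDKO, where 9.28%, 0.908%, 1.373% and 2.35% passed. At an unadjusted limma p under 0.05, 2, 3, 1 and 0 of 9 members differed between RevDKO and Control at these times, beside 1270, 1090, 756 and 1117 of 13326 genes. Between RevScapTKO and RevDKO the members numbered 1, 0, 2 and 0, beside 3506, 1691, 1607 and 2141 genes. The smallest adjusted p, 0.0615, was that of Ppargc1a between RevScapTKO and RevDKO at ZT4 (-1.34, -2.28 to -0.40), and it passed, as the only member, when those 2 genotypes alone were fitted or the RevScapTKO library at ZT16 replicate 2 was left out. Insr passed between these genotypes at ZT16 when the RevScapTKO library at ZT16 replicate 1 was left out, which keeps the library with 209 RPKTM.

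A changed daily pattern, tested with limma by how far the fitted 24 h sine and cosine waves of a pair of genotypes differ, was not found for any member in hepatocytes (0 of 9 for RevDKO minus Control, smallest adjusted p = 0.9999, against 0.203% of all genes, and 0 of 9 for RevScapTKO minus RevDKO, smallest adjusted p = 0.9455, against 0.0%) or in macrophages (0 of 9 in both comparisons, smallest adjusted p = 0.891 and 0.998, against 0.0% of all genes in each). None of the 9 members had an unadjusted limma p under 0.05 in these 4 tests. The test has 3 libraries a time point, and a p that misses the threshold does not show that the patterns were alike.

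Rhythms within a genotype were called with JTK_CYCLE, a rank test, if a 24 h period fitted best with an adjusted p under 0.05 and the highest time mean was more than 1.5 times the lowest, with the series entered 2 times as in the methods of the study. This adjustment covers the periods and phases tried for a gene and not the number of genes. In Control hepatocytes 4 of 9 members were called, against 27.5% of all genes. Igfbp1 rose from a mean of 65.1 RPKTM at ZT10 to 254 at ZT4 (JTK_CYCLE adjusted p = 0.00724), and its values at these times did not overlap. Irs2 had its lowest mean, 54.5, also at ZT10 and its highest, 149, at ZT22 (adjusted p = 0.00126). Trib1, with its highest mean at ZT4 (164) and its lowest at ZT22 (105; adjusted p = 4.72e-04), and Ppargc1a, highest at ZT10 (66.6) and lowest at ZT22 (34.7; adjusted p = 0.0320), did not share that timing. Adjusted over all genes as well, the call of Ppargc1a was lost (adjusted p = 0.0770) and Igfbp1, Irs2 and Trib1 stayed called. Leaving out a library changed the number of members called to 2 for 3 libraries: without Control ZT10 replicate 1 or 2, Irs2 and Trib1 were called, and without ZT22 replicate 3, Igfbp1 and Irs2. Igfbp1 also lost its call without ZT10 replicate 3 or ZT16 replicate 3, and Ppargc1a without ZT16 replicate 3 or ZT22 replicate 1 or 2. Leaving out ZT4 replicate 1 raised the number to 6, with Pik3r1 and Sik1 added, and Sik1 was also called without ZT16 replicate 1 or 3 or ZT22 replicate 1.

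In RevDKO hepatocytes 1 of 9 was called, Igfbp1 (adjusted p = 5.05e-05), against 27.9% of all genes, with a highest mean of 486 at ZT4 and a lowest of 105 at ZT16. In RevScapTKO 2 of 9 were called, Igfbp1 and Insr (adjusted p = 0.00313 each), against 18.3%. For Insr the highest time mean was 1.57 times the lowest, that of ZT16, and it was not called without ZT16 replicate 2, where Irs2 was called in its place. Leaving out a library added members in RevDKO, Insr and Pik3r1 without ZT10 replicate 1, Irs2 without ZT16 replicate 2, and Irs2 and Pik3r1 without ZT4 replicate 2. In RevScapTKO, Irs2 and Sik1 joined without ZT4 replicate 2. Irs2, Trib1 and Ppargc1a were called in Control and not in RevDKO or RevScapTKO; the difference in pattern itself did not pass (above). A limma test over the 4 time points, an alternative, called Igfbp1 alone of the members, in RevDKO (adjusted p = 0.0332, against 2.48% of all genes) and in RevScapTKO (adjusted p = 0.0494, against 0.87%), and no member in Control (adjusted p of Igfbp1 0.0901, against 6.61%). With the series entered once, Trib1 in Control and Igfbp1 in RevDKO remained called among the hepatocyte sets of these 3 genotypes.

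**Figure D3:**
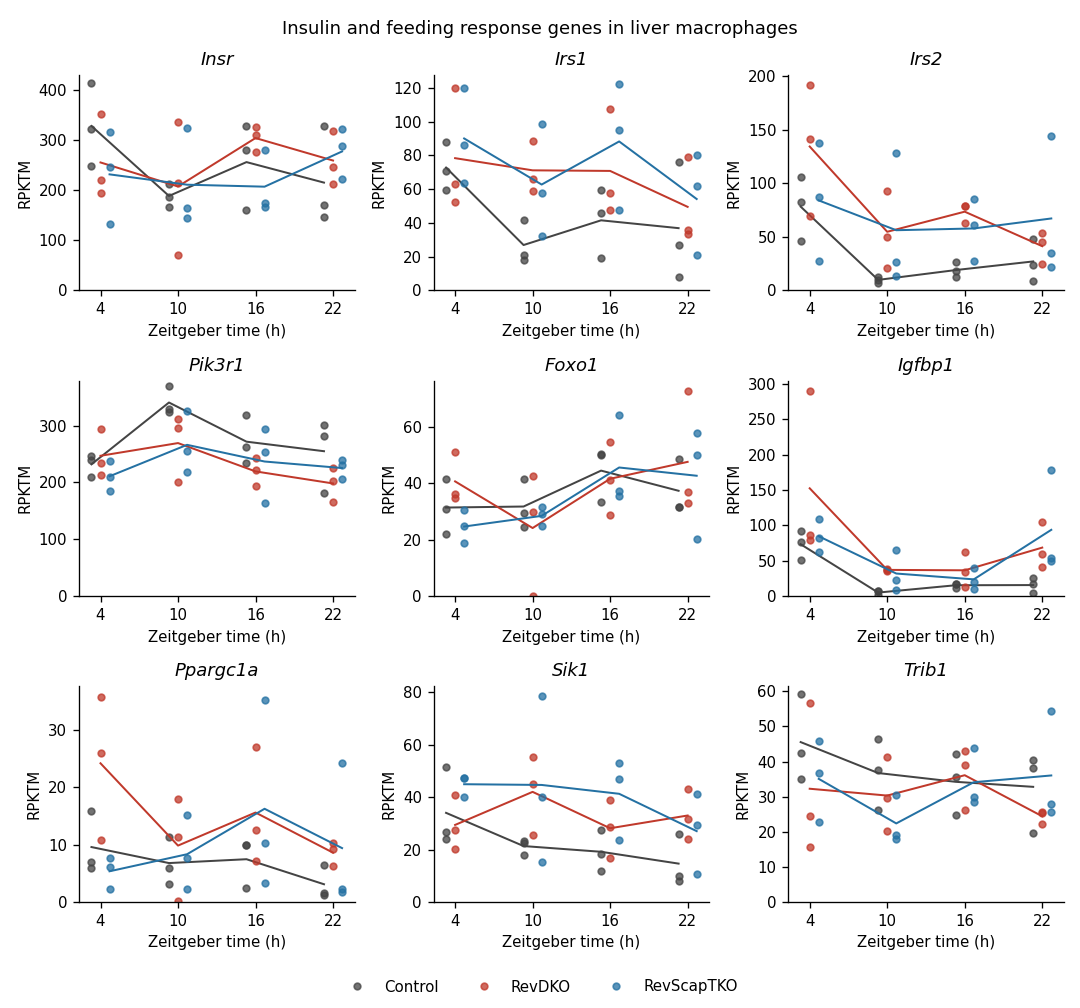
Level of the 9 members in liver macrophages, in RPKTM on linear axes that start at 0, against zeitgeber time in hours; each point is 1 library, lines join the means of 3 libraries, and colours mark Control, RevDKO and RevScapTKO. Control Igfbp1 and Irs2 were at their lowest at ZT10, where all 3 values of each other genotype lay above them.

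In macrophages Igfbp1 rose by mean level in both deletion genotypes. Between RevDKO and Control 1 of 9 members passed, against 0.574% of 13947 genes, between RevScapTKO and Control 1 of 9, against 3.76%, and between RevScapTKO and RevDKO 0 of 9 (smallest limma adjusted p = 0.4785, 0 members with an unadjusted p under 0.05), against 3.0%. Igfbp1 measured 77.1, 91.9 and 51.4 RPKTM at ZT4, 6.76, 1.57 and 6.99 at ZT10, 10.97, 17.8 and 17.7 at ZT16 and 4.25, 16.6 and 26.3 at ZT22 in Control macrophages. It measured 80.0, 87.1 and 290.4 RPKTM at ZT4, 38.9, 35.5 and 37.2 at ZT10, 34.9, 62.0 and 12.9 at ZT16 and 59.9, 41.4 and 105 at ZT22 in RevDKO and 82.2, 62.6 and 109 RPKTM at ZT4, 8.43, 22.6 and 65.1 at ZT10, 10.6, 20.4 and 40.4 at ZT16 and 50.3, 53.4 and 178 at ZT22 in RevScapTKO. Both deletion genotypes lay above all Control values at ZT10 and at ZT22 and overlapped them at ZT4 and ZT16. The difference was 1.71 log2 units for RevDKO minus Control (SE 0.33, 1.04 to 2.39, limma adjusted p = 0.00623), called under 34 of 34 alternatives, and 1.34 for RevScapTKO minus Control (SE 0.33, 0.66 to 2.02, adjusted p = 0.0162), called under 32 of 34.

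Hepatocyte RNA was present in these macrophage libraries, Igfbp1 is a hepatocyte gene, and the part of that RNA in the Igfbp1 difference was measured only through marker levels. The summed level of 10 hepatocyte markers was, by the median library, 89170 RPKTM for Control, 73379 for RevDKO and 85596 for RevScapTKO (range over libraries 47364 to 1616800, 43150 to 97600 and 29293 to 819350). Alb alone, whose value follows its rank, had medians of 73347, 53334 and 73347 RPKTM. By single marker, 7 of 10 hepatocyte markers had a higher median in RevDKO than in Control and 4 of 10 in RevScapTKO. Macrophage markers also moved with genotype in these libraries: their summed level was, by the median library, 19791 RPKTM in Control (3593 to 42103), 9968 in RevDKO (4284 to 35012) and 10702 in RevScapTKO (5369 to 34221), with 12 of 12 markers lower by median in RevDKO than in Control and 11 of 12 in RevScapTKO, and their part in the Igfbp1 difference was not tested. With the level of hepatocyte markers as a covariate the differences were 1.79 for RevDKO and 1.716 for RevScapTKO minus Control (adjusted p = 5.89e-04 and 6.84e-04). Some of these markers differed between genotypes in hepatocytes themselves. Mean Cyp3a11 there was 1614, 296 and 2140 RPKTM in Control, RevDKO and RevScapTKO and Cyp2e1 30860, 32069 and 18812, while Serpinc1 moved less (8194, 8471 and 9312). This covariate, here and below, thus does not measure hepatocyte RNA alone. Without the 3 libraries high in Alb, RevScapTKO minus Control was 0.97 and did not pass (adjusted p = 0.135), while RevDKO minus Control was 1.487 (adjusted p = 0.02709).

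Irs2 in macrophages was also higher in both deletion genotypes than in Control, without passing as fitted. It measured 46.3, 82.8 and 106 RPKTM at ZT4, 9.99, 12.4 and 7.11 at ZT10, 12.5, 26.3 and 18.3 at ZT16 and 8.9, 24.1 and 48.2 at ZT22 in Control and 141, 69.7 and 192 RPKTM at ZT4, 93.3, 21.1 and 49.9 at ZT10, 62.9, 78.4 and 79.2 at ZT16 and 24.6, 53.7 and 45.6 at ZT22 in RevDKO. In RevScapTKO it measured 87.1, 27.8 and 137 RPKTM at ZT4, 13.7, 27.0 and 128 at ZT10, 85.3, 27.1 and 61.1 at ZT16 and 35.4, 21.9 and 144 at ZT22. All values of both deletion genotypes lay above all Control values at ZT10 and ZT16, and the groups overlapped at ZT4 and ZT22. The difference was 1.41 (0.70 to 2.121, limma adjusted p = 0.0514) for RevDKO and 1.08 (0.37 to 1.79, adjusted p = 0.0800) for RevScapTKO minus Control. The first passed without the Control library at ZT22 replicate 3 (1.55, adjusted p = 0.0114), RevDKO ZT10 replicate 2 (1.55, adjusted p = 0.0267), RevDKO ZT4 replicate 2 (1.51, adjusted p = 0.0381) or RevDKO ZT22 replicate 1 (1.492, adjusted p = 0.0494), and with the hepatocyte marker covariate (1.48, adjusted p = 0.00941), a fit of only the 2 genotypes (adjusted p = 0.0122) or a pseudocount of 5 (adjusted p = 0.0436). The second passed without Control ZT22 replicate 3 (1.21, adjusted p = 0.0298), RevScapTKO ZT4 replicate 2 (1.24, adjusted p = 0.0380), ZT10 replicate 1 (1.25, adjusted p = 0.0248) or ZT22 replicate 2 (1.22, adjusted p = 0.0360), and with the covariate (1.443, adjusted p = 0.00576).

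Irs1 (0.77 and 0.84 log2 units above Control in RevDKO and RevScapTKO, limma adjusted p = 0.245 and 0.104) and Sik1 (0.63 and 0.78, adjusted p = 0.291 and 0.0933) did not pass in macrophages. Both passed in RevScapTKO with the hepatocyte marker covariate (1.32, adjusted p = 5.75e-04, and 1.16, adjusted p = 0.00142) and without the Control library at ZT22 replicate 3 (1.04, adjusted p = 0.0158, and 0.90, adjusted p = 0.0290) or the RevScapTKO library at ZT22 replicate 2 (0.99, adjusted p = 0.0373, and 0.92, adjusted p = 0.0290), and Sik1 also without RevScapTKO ZT10 replicate 1 (0.93, adjusted p = 0.0213). Irs1 in RevDKO passed with that covariate (0.87, adjusted p = 0.0404) and without the Control library at ZT22 replicate 3 (0.96, adjusted p = 0.0406). Insr, Foxo1, Pik3r1, Ppargc1a and Trib1 did not pass, though Pik3r1 passed in RevScapTKO minus Control with the covariate (-0.39, adjusted p = 0.0265). Ppargc1a, here by another transcript (NM_008904) than in hepatocytes, was near the floor of the filter, from 0.14 to 35.8 RPKTM over the 36 libraries. Foxo1 was listed at 0 in 1 library, RevDKO ZT10 replicate 2, where Insr was also the lowest of the 36 at 71.0 RPKTM.

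By JTK_CYCLE no member was called in Control macrophages (0 of 9, against 17.8% of genes), although Control Igfbp1 ran from a mean of 5.11 RPKTM at ZT10 to 73.4 at ZT4 and Irs2 from 9.84 to 78.2. Without the Control library at ZT22 replicate 1 both were called, with Irs1, and without ZT22 replicate 2 Irs2 was called. Without ZT10 replicate 3 or ZT16 replicate 1 Foxo1 was called, without ZT16 replicate 2 Sik1, and without ZT4 replicate 2 Foxo1 and Pik3r1. In RevDKO 1 of 9 was called, Igfbp1 (adjusted p = 1.62e-04), against 25.3%, and in RevScapTKO 2 of 9, Igfbp1 (adjusted p = 0.00313) and Foxo1 (adjusted p = 0.0157), against 13.5%. Adjusted over all genes as well, Foxo1 was not called (adjusted p = 0.132). In RevDKO, Pik3r1 joined without ZT10 replicate 1, Irs1 without ZT22 replicate 2 and Trib1 without ZT4 replicate 3. In RevScapTKO, Foxo1 lost its call without ZT16 replicate 2, ZT4 replicate 1 or ZT10 replicate 3, and Insr was called without the last of these. By limma over time points no member was called in any of the 3 genotypes, where 0.0645%, 2.82% and 0.0645% of all genes were; Igfbp1 in Control came nearest (adjusted p = 0.0544).

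In ScapKO Igfbp1, Irs2 and Sik1 spread widely within ZT4 and within ZT22. In hepatocytes Igfbp1 measured 1323, 1325 and 118 RPKTM at ZT4, 84.7, 136 and 202 at ZT10, 879, 913 and 358 at ZT16 and 148, 4071 and 1819 at ZT22. In macrophages of the same genotype it measured 409, 475 and 32.7 RPKTM at ZT4, 26.3, 9.07 and 51.9 at ZT10, 180.1, 253 and 117 at ZT16 and 33.2, 4244 and 553 at ZT22. Values within a time point thus differed by more than 10-fold at ZT4 and ZT22 and the same replicate numbers were high and low in both cell types: replicate 3 was lowest at ZT4 and replicate 2 highest at ZT22, with replicate 1 lowest. No label stated that equal numbers mark the same mouse.

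Irs2 in ScapKO measured 378, 349 and 128 RPKTM at ZT4, 132, 159.6 and 171 at ZT10, 473, 432 and 287 at ZT16 and 211, 1588 and 872 at ZT22 in hepatocytes. In macrophages it measured 311, 233 and 71.2 RPKTM at ZT4, 69.2, 69.3 and 94.7 at ZT10, 195, 173 and 130.1 at ZT16 and 83.6, 2404 and 538 at ZT22. Sik1 measured 313, 336 and 109 RPKTM at ZT4, 278, 369.5 and 459.6 at ZT10, 341, 682 and 430.5 at ZT16 and 217, 1174 and 810.5 at ZT22 in hepatocytes. These genes followed the order of Igfbp1 within ZT4 and ZT22, replicate 3 being lowest at ZT4 and replicate 2 highest and replicate 1 lowest at ZT22. Insr kept to 1798 to 2206 RPKTM in 11 of 12 hepatocyte libraries and was 2868 in ZT22 replicate 2, and Trib1, from 315 to 514, and Ppargc1a, from 59.8 to 96.1, spread less.

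**Figure D4:**
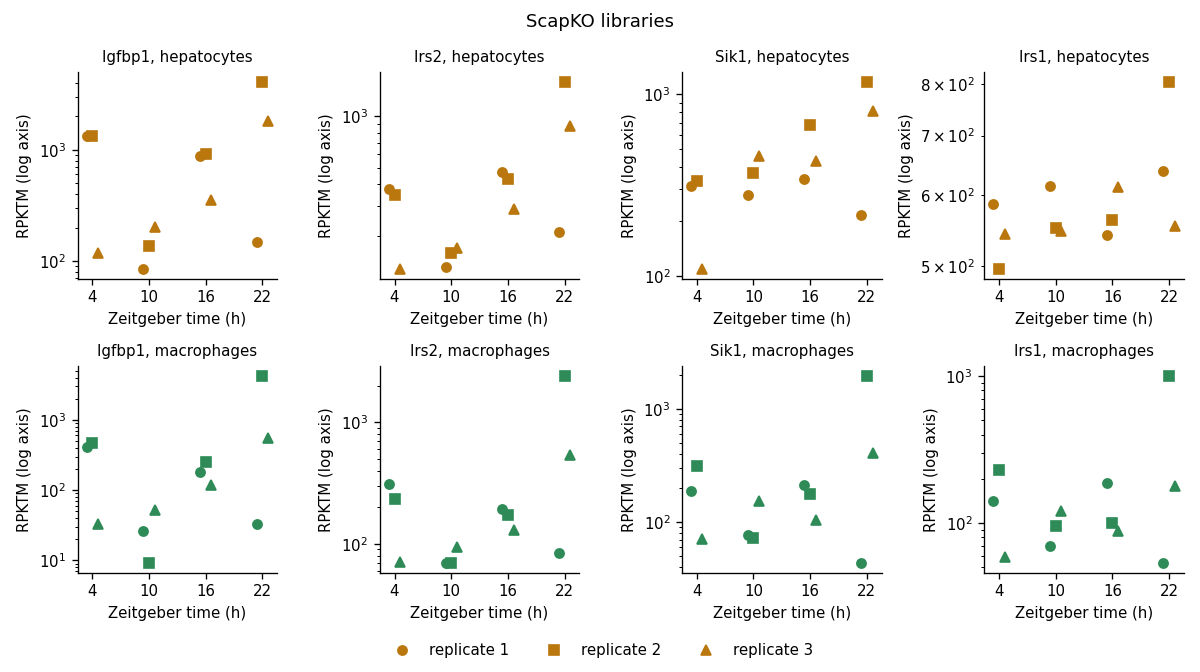
Igfbp1, Irs2, Sik1 and Irs1 in ScapKO hepatocytes (top) and macrophages (bottom), in RPKTM on log axes, against zeitgeber time in hours; each symbol is 1 library and its shape the replicate number. Replicate 2 at ZT22 was the highest of 12 libraries for all 4 genes in both cell types, and at ZT4 replicate 3 was the lowest of its 3 for Igfbp1, Irs2 and Sik1.

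The ScapKO libraries at ZT22 replicate 2 stood apart. In the macrophage table it was the highest of 12 for 7 of 9 members, with Irs2 at 2404 RPKTM against at most 538 in the other 11, Irs1 at 1004 against at most 229 and Ppargc1a at 90.0 against at most 18.3, and the lowest for Pik3r1, 989 against at least 1536. Hepatocyte, endothelial and stellate marker sums were at their highest among the ScapKO macrophage libraries in this library (hepatocyte markers 116090 RPKTM against a median of 44857). Among the ScapKO hepatocyte libraries, ZT22 replicate 2 likewise had the highest macrophage, endothelial and stellate marker sums. These were 3713, 5258 and 2751 RPKTM, against medians of 929, 1167 and 1114. The part of such other cells in the values of either library was not tested. JTK_CYCLE called Igfbp1 and Irs2 in ScapKO hepatocytes (2 of 9, adjusted p = 0.00724 and 0.00313, against 17.8% of genes) and in ScapKO macrophages (2 of 9, adjusted p = 0.00313 each, against 19.9%), with the lowest mean at ZT10 in each. Without ZT22 replicate 2, Irs2 was called in both cell types and Igfbp1 in macrophages. In hepatocytes Igfbp1 also lost its call without ZT10 replicate 1 or ZT22 replicate 3, and without ZT22 replicate 1 Pik3r1 and Sik1 joined in hepatocytes and Foxo1, Insr and Sik1 in macrophages. By limma over time points no member passed in either (smallest adjusted p = 0.227 and 0.619, with 1 and 0 members at an unadjusted p under 0.05), against 1.289% and 0.0% of genes.

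Other genes of the pathway were counted in hepatocytes from 4 lists, chosen for function. Of 27 insulin signalling genes tested, 0 passed between RevDKO and Control (4.43% of all genes did; list median 0.04 log2 units, beside -0.01 over all genes). Between RevScapTKO and RevDKO 4 rose and 2 fell, 22.2% of the list against 26.2% of all genes (median 0.10, beside -0.03). Among the rises were those of Trib3, a pseudokinase that binds AKT (0.93, limma adjusted p = 0.00103), and Mtor (0.47, adjusted p = 0.0249), and the falls were those of Tsc1, a brake on mTOR (-0.29, adjusted p = 0.0397), and Akt2, the main AKT of liver (-0.23, adjusted p = 0.0340). With the macrophage marker level as a covariate all 6 calls of the list were lost, and 2.6% of all genes passed. Macrophage marker sums themselves moved with genotype (by the median library 1186 RPKTM in RevDKO and 3167 in RevScapTKO). Why calls were lost with this covariate, here and in the lists below, was not tested. Leaving out a single library ended the call of Akt2 for 11 libraries, of Tsc1 for 13 and of Mtor for 4, and of Trib3 for none of the 24.

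Of 18 genes of the fasting and FOXO1 arm, 1 fell between RevDKO and Control, Cebpb (-0.60, limma adjusted p = 0.0273, lost when any 1 of 8 libraries was left out), which is 5.56% of the list against 4.43% of all genes. Between RevScapTKO and RevDKO 1 rose and 5 fell, 33.3% against 26.2%. Pck1, the gluconeogenic enzyme PEPCK, rose from 4134 to 7159 RPKTM (0.80, limma adjusted p = 0.00158). G6pc, the last enzyme of glucose release, fell from 2415 to 1738 RPKTM (-0.54, adjusted p = 0.0495, lost when any 1 of 18 libraries was left out), and Pdk4 (-0.79, adjusted p = 0.0233, lost without RevScapTKO ZT10 replicate 1) and Foxo4 (-0.54, adjusted p = 0.0126) also fell. With the macrophage marker covariate G6pc was -0.03 and none of the 18 passed. The list median was -0.09 and -0.14 in these comparisons, beside -0.01 and -0.03 over all genes.

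Of 6 genes that insulin induces, through SREBP-1c and other factors, 0 passed between RevDKO and Control and 6 fell between RevScapTKO and RevDKO (26.2% of all genes passed), of which 5 still fell with the macrophage marker covariate, with a list median of -3.365 log2 units beside -0.03 over all genes. Scd1, a desaturase, fell from 9876 to 15.4 RPKTM (-8.91, limma adjusted p = 1.63e-22), Fasn, fatty acid synthase, from 7715 to 266 (-4.67, adjusted p = 1.01e-15) and Srebf1, which encodes SREBP-1, from 2064 to 133 (-4.07, adjusted p = 2.61e-17). The same 3 genes fell in macrophage libraries (Scd1 -4.63, Fasn -4.16 and Srebf1 -3.17, limma adjusted p at most 7.91e-13), where hepatocyte RNA was present and its part was not tested.

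Of 10 immediate early genes tested, which cell isolation is known to induce, 2 fell between RevDKO and Control, Fos (-0.92, limma adjusted p = 0.0424) and Ier2 (-0.72, adjusted p = 0.0409), each lost when any 1 of 16 libraries was left out, beside 4.43% of all genes. Atf3 (1.81, limma adjusted p = 5.40e-04) and Egr1 (19.5 to 53.5 RPKTM, adjusted p = 0.0211) rose between RevScapTKO and RevDKO, 2 of 10 against 26.2% of all genes, and neither passed with the macrophage marker covariate, while Egr1 was also lost without RevScapTKO ZT16 replicate 3 (adjusted p = 0.0540). Their part in the members' values was not tested.

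Between RevScapTKO and Control hepatocytes 5 insulin signalling genes rose and 3 fell, 1 fasting gene rose and 6 fell, 5 insulin-induced genes fell, and 2 immediate early genes rose and 4 fell. These are 29.6%, 38.9%, 83.3% and 60% of the lists, against 35.9% of all genes. With the macrophage marker covariate 5.9% of all genes passed, and of these calls 0 of 8, 2 of 7, 5 of 5 and 2 of 6 were kept. Trib3 (1.15, limma adjusted p = 5.71e-05) and Pck1 (0.60, adjusted p = 0.0107) were among the rises of the first 2 lists, and Foxo3 (-0.84, adjusted p = 6.53e-04), Cebpb (-0.75, adjusted p = 6.48e-04) and Cebpa (-0.72, adjusted p = 8.05e-06) led the falls of the second, of which Foxo3 and Cebpa were kept with the covariate.

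Across the 36 hepatocyte libraries of 3 genotypes, the genes ranked most like each member by Spearman correlation of log2(RPKTM + 1) were, as a description over libraries that share genotype, time and table, Ip6k2, Ing4 and Pigl for Igfbp1 (rho 0.75, 0.70 and 0.69), 4833411C07Rik, Khnyn and Rbpms for Irs2 (0.79, 0.77 and 0.74), and Ptch1, Gpld1 and Cfi for Insr (0.75, 0.74 and 0.73). For Trib1 they were Ier2, Rps27 and Map3k5 (0.73, 0.70 and 0.68), for Ppargc1a Cps1, Zfp983 and Snrpn (0.72, 0.64 and 0.63), and for Sik1 Rnf14, Slc25a25 and Gm14403 (0.67, 0.65 and 0.65). Pik3r1 was most like Tmem42, Zfp91 and Fam20b (0.73, 0.65 and 0.62), Foxo1 most like Irf2, Arhgef26 and Il6ra (0.68, 0.66 and 0.65), and Irs1 most like Ulk3, Herc1 and Ecpas (0.65, 0.63 and 0.63). Among the members themselves the highest values were those of Insr with Irs2 (0.61) and Igfbp1 with Irs2 (0.60), and the lowest that of Irs2 with Pik3r1 (-0.50).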

How the data were processed

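Reads were aligned with STAR to mm9 and counted over RefSeq genes with HOMER, per the methods of the study. The deposited values are RPKM with 10 times the read base (RPKTM), quantile normalised by the authors within each of 4 tables (42322 transcripts), so depth is unknown, no count test was possible, and tests ran within a table. Groups followed the labels, and transcripts with the highest mean stood for genes. Differences were fitted on log2(RPKTM + 1) with limma 3.58.1 (trend) in R 4.3.3 over 12 genotype and time means of 36 libraries, for genes with at least 3 libraries above 5 RPKTM, with Benjamini-Hochberg adjustment over all genes. The log2 scale understates changes of low genes. JTK_CYCLE was written in Python 3.11.15 (numpy 2.4.6, scipy 1.17.1) with periods of 18 and 24 h. Both were tested on simulated data. Marker levels were covariates in 1 alternative. The members and lists were chosen with earlier results of these data known; genes named from lists were up to 3 per direction with the largest called change, and 3 most correlated genes per member. Alternatives leaving out the 3 least similar libraries or those high in Alb were chosen after seeing the data. A gene of the lists is not reported here by name.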

Additional observations from a re-analysis of the deposited data

How the results depend on the processing

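Single-gene differences were those of the members in both cell types and of list genes named for their largest called change. Of 41 that passed, 0 changed direction under any alternative and 30 lost their call under at least 1. Of 48 that did not pass, 22 changed sign and 7 passed under at least 1. List genes entered only if called, so these counts cannot be set against each other. Of the member calls, Trib1 in hepatocytes (33 of 33) and Igfbp1 in macrophages (34 of 34), both RevDKO minus Control, held throughout. Every other member call was lost under at least 1 alternative. The number of members called by mean level in hepatocytes, 2 for RevDKO minus Control, was 1 with no filter on low values or no trend and 1 to 2 without single libraries. For RevScapTKO minus RevDKO (1) it was 0 with the marker covariate or no filter and 0 to 1 without single libraries, and for RevScapTKO minus Control (1) it was 0 without the 3 least similar libraries and 1 to 2 without single ones. At ZT4 and at ZT16, RevScapTKO minus RevDKO (0) gave 0 to 1 without single libraries, and at ZT4 1 with only the 2 genotypes compared. In macrophages RevDKO minus Control (1) gave 3 with the covariate, 2 with only those genotypes, 2 with a pseudocount of 5 and 1 to 3 without single libraries, and RevScapTKO minus Control (1) gave 5 with the covariate, 0 with no filter, 0 without the libraries high in Alb and 1 to 4 without single ones. The cause was not tested.

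No label ties equal replicate numbers together, and the main fit treated the libraries as unpaired. Residuals of libraries with equal numbers had a mean correlation of 0.063 in hepatocytes and 0.0888 in macrophages, over 0.1 in 13 of 36 and 15 of 36 pairs. With unequal numbers the mean was -0.0317 and -0.0442, over 0.1 in 7 of 72 pairs in each cell type. What equal numbers share was not tested. With the replicate block the counts were 2 for RevDKO minus Control in macrophages (Igfbp1 and Irs2, the latter with adjusted p = 0.0153) and 3 for RevScapTKO minus Control (Igfbp1, Irs1 and Irs2, the last with adjusted p = 0.0320).

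For rhythms, hepatocytes gave in Control (4) 1 with the series entered once, 0 by limma and 2 to 6 without single libraries, in RevDKO (1) 2 with no minimum ratio and 1 to 3, in RevScapTKO (2) 0 entered once, 1 by limma and 2 to 4, and in ScapKO (2) 4 with no minimum ratio, 0 entered once, 0 by limma and 1 to 4. Macrophages gave in Control (0) 2 with no minimum ratio and 0 to 3, in RevDKO (1) 0 by limma and 1 to 2, in RevScapTKO (2) 1 adjusted over all genes, 0 entered once, 0 by limma and 1 to 2, and in ScapKO (2) 0 entered once, 0 by limma and 2 to 5. The deposited values give no depth, so precision rests on 3 libraries a time point.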
